A study of Mus musculus with 23 samples.

Results

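The genes described here are 10 components of the receptor complex and of the proximal signalling machinery of Toll-like receptor 4 (TLR4), the macrophage sensor of bacterial lipopolysaccharide (LPS): the co-receptors Cd14 and Ly96, the adaptors Myd88, Tirap, Ticam1 and Ticam2, the kinase family members Irak4, Irak2 and Irak3, and the ubiquitin ligase Traf6. They were taken by symbol from the deposited gene tables. The 10 members are 10 of 52636 genes in the tables, each symbol had 1 row, and all 10 had enough counts to be tested. The series measured polyadenylated RNA in mouse bone marrow-derived macrophages, a primary culture in which marrow progenitors are grown into macrophages. The groups were Stk40 KO macrophages, untreated at T0 or given LPS and collected at T6, T16 or T32, and WT macrophages, untreated at T0 or given LPS and collected at T6, T16 or T32. Each group had 3 libraries except WT at T16, which had 2, so 12 KO and 11 WT libraries were compared. Stk40 encodes a pseudokinase that serves as a substrate adaptor of the COP1 ubiquitin ligase. The unit of the time labels, the dose of LPS, the mouse strain, sex and age, the Stk40 allele, and whether the replicates were separate mice were not given in the sources used here. Library totals were 19455080 to 44097733 counts, and the lowest count of a member in any library was 117.

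TLR4 cannot bind LPS efficiently alone. Cd14 takes LPS from serum binding protein and hands it to the complex of TLR4 with MD-2, the product of Ly96. At the cell surface the complex recruits Tirap and Myd88, on which Irak4, Irak2 and Irak1 assemble and activate Traf6, leading to NF-κB and MAP kinase activation. After internalisation, which also needs Cd14, the complex recruits Ticam2 (TRAM) and Ticam1 (TRIF), the arm that leads to type I interferon. Irak3 (IRAK-M) lacks effective kinase activity and is known in macrophages as a brake that is induced by LPS and accompanies endotoxin tolerance.

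For Myd88, Irak2 and Irak3, 3 members that rose several-fold with LPS in both genotypes, the promoter windows were read from RefSeq on GRCm38.p6. Windows were matched to 7 of the 10 members. The absence of a window for a member here does not mean that RefSeq holds none for it. Each window runs from 250 bases before to 50 bases after the transcript start, is written 5′ to 3′ on the gene's strand, and is shown so that the motif letters searched can be seen in place. Capitals mark a match to a searched motif.
Myd88 promoter, chr9:119339969-119340268, minus strand: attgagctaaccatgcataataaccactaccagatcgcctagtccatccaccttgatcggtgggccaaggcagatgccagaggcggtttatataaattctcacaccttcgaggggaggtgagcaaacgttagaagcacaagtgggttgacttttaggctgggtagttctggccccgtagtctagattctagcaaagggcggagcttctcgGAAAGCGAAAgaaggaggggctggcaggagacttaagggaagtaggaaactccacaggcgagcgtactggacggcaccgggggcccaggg
Irak2 promoter, chr6:113638217-113638516, plus strand: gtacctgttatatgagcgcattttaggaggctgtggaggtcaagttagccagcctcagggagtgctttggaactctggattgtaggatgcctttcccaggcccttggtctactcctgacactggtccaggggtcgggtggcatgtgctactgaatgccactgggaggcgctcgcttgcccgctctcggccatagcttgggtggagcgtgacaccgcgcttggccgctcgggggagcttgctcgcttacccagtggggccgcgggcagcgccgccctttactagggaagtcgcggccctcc
Irak3 promoter, chr10:120202081-120202380, minus strand: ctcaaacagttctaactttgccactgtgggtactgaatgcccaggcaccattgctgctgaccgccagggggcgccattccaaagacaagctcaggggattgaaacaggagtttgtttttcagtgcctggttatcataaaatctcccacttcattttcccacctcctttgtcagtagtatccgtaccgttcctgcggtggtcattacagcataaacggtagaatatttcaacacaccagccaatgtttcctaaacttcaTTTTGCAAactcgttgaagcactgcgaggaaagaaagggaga
The motifs were κB (GGGA and TTCC with 2 free bases between them), the interferon-stimulated response element (GAAA, 2 free bases and GAAA again), AP-1 (TGANTCA) and C/EBP (TTGCNNAA), searched on both strands. Among 32817 promoter windows of the same length, 1.47% held the κB letters, 3.43% the interferon element, 7.81% AP-1 and 10.8% C/EBP. The Myd88 window held 1 match to the interferon element beginning at -40 relative to the start, the Irak3 window held 1 C/EBP match on the opposite strand beginning at 9, and the Irak2 window held none. The RefSeq start of Myd88 lies 1393 bp inside the GENCODE gene, so the window is that of the RefSeq transcript. A match describes these letters and says nothing of factor binding. In GENCODE release 21 on GRCm38, Myd88 spans chr9:119335934-119341411, minus strand, Irak2 spans chr6:113638467-113695026, plus strand, and Irak3 spans chr10:120141648-120202130, minus strand.

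The library kit did not mark strand, so reads in exons shared with a neighbour could not be assigned by strand. Exons of Myd88 overlap those of Acaa1a over 290 bp, those of Irak4 overlap Twf1 over 395 bp, those of Irak3 overlap Tmbim4 over 192 bp and those of Tirap overlap Srpr over 39 bp, all on opposite strands. Tirap also overlaps the antisense gene Gm39318, which held 15 counts in all libraries together, over 446 bp. Ticam2 shares 838 of its 5792 exonic bp with Tmed7 on the same strand. The rule by which reads in these stretches were counted was not given in the sources used here.

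Stk40 RNA was not lower in the KO libraries. Levels as CPM, read counts scaled to the TMM-adjusted library size, were 51.7 to 61.3 in KO against 39.7 to 52.5 in WT at T0, 354 to 388 in KO against 281 to 335 in WT at T6, 155 to 166 in KO against 95.97 to 143 in WT at T16 and 102 to 107 in KO against 69.05 to 98.99 in WT at T32. A count over the whole gene cannot show the loss of a part of it, so KO and WT mean here the libraries so labelled. Marker genes of cell types that a marrow culture could hold were summed. Macrophage markers (10 genes) reached 16668 to 33649 CPM in all 23 libraries, while markers of T, B and NK cells stayed at 0.8605 to 2.98 CPM, of dendritic cells at 0.778 to 7.41 CPM and of basophils and mast cells at 0.486 to 3.68 CPM. Stromal markers summed to 26.4 to 415 CPM and neutrophil and precursor markers to 70.4 to 751 CPM. Of the libraries, 4 are named here as those that stood apart: replicate 1 of KO T0, with 0.355% of counts from mitochondrial genes against 1.42% and 1.82% in the other KO T0 libraries, replicate 2 of KO T6 and of WT T6, with Saa3 at 24058 and 22933 CPM against 6342 to 11954 CPM in the other T6 libraries, and replicate 2 of WT T16, with Saa3 at 47811 CPM against 21829 CPM in replicate 1. WT T16 has only replicates 1 and 2, so which of them is unusual cannot be told. Mitochondrial genes took 0.389% of counts in replicate 1 and 0.233% in replicate 2. Without the 4 libraries, values that use WT T16 rest there on replicate 1 alone. Transcripts of Y-linked genes were present in 4 of the 11 WT libraries (replicate 2 at T0, 1 at T6, 2 at T16 and 3 at T32) and in none of the 12 KO libraries.

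Levels compared between genes are given per gene length, as the authors' size-factor-adjusted RPKM (nRPKM, mean ± SD). Cd14 had the highest nRPKM of the members in all 8 groups and Myd88 the next. In untreated cells Cd14 averaged 162 ± 28.1 nRPKM in KO and 174 ± 38.6 nRPKM in WT, and Myd88 73.2 ± 2.803 nRPKM in KO and 56.2 ± 8.47 nRPKM in WT. Ly96 followed in both genotypes at T0, then Irak2, and the libraries of Ticam1, Ticam2, Irak3 and Irak4, next in that order, overlapped from one to the next. Traf6 and Tirap were the lowest at T0, Tirap at 2.14 ± 1.19 nRPKM in KO and 0.995 ± 0.0747 nRPKM in WT. The order changed with LPS: Irak3, 7th of 10 at T0, was 5th at T6 and 3rd at T16 and T32 in both genotypes, below Cd14 and Myd88 with no overlap with either neighbour at T16 and T32. Irak4 was the lowest member in KO at T6, at 4.71 ± 0.693 nRPKM, where its libraries overlapped those of Tirap at 6.39 ± 3.31 nRPKM.

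**Figure D1:**
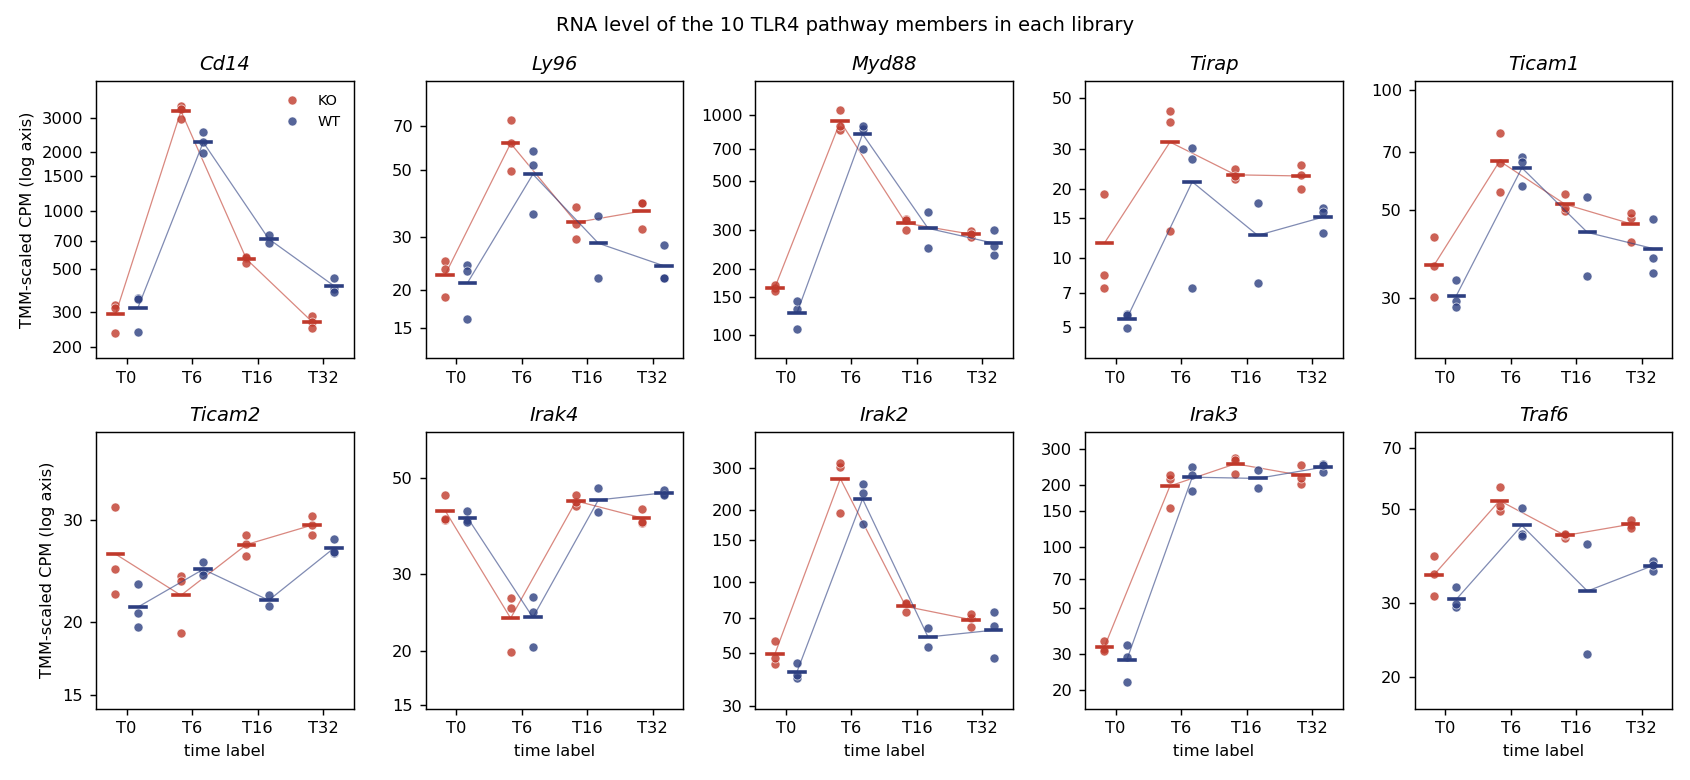
Level of each member in every library (points; horizontal bars are group means, joined by thin lines), as TMM-scaled CPM on a log axis, against the time label, with KO left of WT at each time. Cd14, Myd88 and Irak2 peak at T6, Irak3 stays high from T6 to T32, and Irak4 is lowest at T6.

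The first comparison was that of LPS-treated with untreated cells of the same genotype. At T6, 8 of 10 members rose in KO and 8 in WT, and 1, Irak4, fell in each (adjusted p under 0.05), against a background of 26.2% higher and 32.4% lower of all 15782 genes tested in KO and 27.3% higher and 31.9% lower in WT. The median log2 fold change of the members was 1.45 in KO and 1.59 in WT, beside -0.17 in KO and -0.14 in WT over all genes tested. Ticam2 was the member not called in either genotype. Other measures moved with LPS. Of the 10 neutrophil and precursor markers, 3 fell in KO and 5 in WT at T6, 8 in KO and 7 in WT at T16, and 9 in KO and 8 in WT at T32, while 1 rose in KO at T16 and at T32. The median log2 fold change of these markers at T32 was -2.55 in KO and -2.82 in WT. All 16 type I interferon response genes rose at T6, T16 and T32 in both genotypes. Mitochondrial transcripts took 0.238 to 0.321% of counts in KO and 0.282 to 0.527% in WT at T32, against 0.355 to 1.82% in KO and 1.38 to 1.68% in WT at T0. Their part in the changes of the members was not tested. KO and WT here share no library, and each genotype's later time points share its T0 libraries. Where LPS and T0 libraries of a member did not overlap, this is given below as a description. The share of all genes so separated is not given here. Many genes changed with LPS, as the shares above show, so such separation does not mark out a member.

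Cd14 (ENSMUSG00000051439), the LPS-transfer protein that is anchored in the membrane, rose most in KO. Its level at T6 was 3444, 2979 and 3354 CPM in KO, against 235, 327 and 316 CPM in KO at T0. In WT it was 2536, 2245 and 1977 CPM at T6, against 356, 353 and 237 CPM at T0. All T6 libraries were far above all T0 libraries in both genotypes. The log2 fold change was 3.48 ± 0.17 (SE) in KO, that is 11.1-fold (adjusted p = 2.41e-12), and 2.84 ± 0.17 in WT, 7.15-fold (adjusted p = 2.5e-11). By T16 Cd14 was 572, 580.2 and 538 CPM in KO and 747 and 685 CPM in WT, still higher than at T0 (log2 0.95 ± 0.16, adjusted p = 8.76e-05, in KO and 1.18 ± 0.17, adjusted p = 2.44e-05, in WT). At T32 it was 288, 268 and 249.6 CPM in KO, where the libraries overlapped those of T0, and 450.3, 398 and 381 CPM in WT, where each was above each T0 library without passing the test (log2 0.38 ± 0.16, adjusted p = 0.0569). The WT value did pass without KO T0 replicate 1, WT T0 replicate 1 or WT T0 replicate 2 (log2 0.38 to 0.49, adjusted p = 0.035 to 0.043).

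Ly96 (ENSMUSG00000025779), which encodes the LPS-binding subunit MD-2, rose less. It reached 49.4, 72.9 and 61.2 CPM at T6 in KO, against 18.97, 24.97 and 23.5 CPM at T0, and 51.9, 57.5 and 35.6 CPM at T6 in WT, against 24.2, 16.1 and 23.1 CPM at T0. No T6 library overlapped a T0 library of its genotype. The log2 fold change was 1.44 ± 0.21 in KO (adjusted p = 7.74e-06) and 1.19 ± 0.21 in WT (adjusted p = 7.13e-05). In KO it was still higher at T16 (log2 0.58 ± 0.21, adjusted p = 0.0332) and T32 (log2 0.70 ± 0.21, adjusted p = 0.013), with 31.9, 38.8 and 38.8 CPM at T32. In WT, T16 was not called (log2 0.43 ± 0.23, adjusted p = 0.157; -0.034 when scaled by library totals and -0.10 without the WT libraries that hold Y-linked transcripts) and the libraries at T16 and T32 overlapped those at T0. The KO call at T16 was lost without KO T0 replicate 1 or 3 or KO T16 replicate 1 or 3 (adjusted p = 0.061 to 0.12), that at T32 without KO T0 replicate 1 (log2 0.59, adjusted p = 0.051), and the WT value at T16 passed without WT T16 replicate 1 (log2 0.74, adjusted p = 0.040).

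Myd88 (ENSMUSG00000032508), the adaptor shared by nearly all Toll-like receptors and by the IL-1 receptor family, was raised at every LPS time point in both genotypes. At T6 it was 854, 1050.3 and 887 CPM in KO, against 165, 169.6 and 159 CPM at T0, and 863, 890.1 and 695 CPM in WT, against 131, 143 and 107 CPM at T0. The T6 libraries did not come near those of T0. These were log2 fold changes of 2.50 ± 0.16 in KO and 2.69 ± 0.16 in WT (adjusted p = 5.15e-11 and 2.15e-11). At T16 the log2 fold change was 0.97 ± 0.15 in KO and 1.27 ± 0.16 in WT, and at T32 0.80 ± 0.15 in KO and 1.04 ± 0.15 in WT, all 4 past the test (adjusted p = 0.00031 at most).

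Tirap (ENSMUSG00000032041), the bridging adaptor that brings Myd88 to TLR4 at the plasma membrane, was the member whose replicates differed most. At T6 it was 39.2, 13.1 and 43.9 CPM in KO, against 19.05, 7.38 and 8.47 CPM at T0, and 26.98, 7.43 and 30.1 CPM in WT, against 4.93, 5.701 and 5.67 CPM at T0. The low value at T6 in each genotype is that of replicate 2 and the high value in KO at T0 that of replicate 1, which are 3 of the 4 libraries that stood apart. Another of these, replicate 2 of WT T16, had 7.77 CPM, against 17.3 CPM in replicate 1. Their part in the Tirap values was not tested beyond leaving them out. The log2 fold change at T6 was 1.46 ± 0.45 in KO (adjusted p = 0.00834) and 1.99 ± 0.46 in WT (adjusted p = 0.000982), and without the 4 libraries 2.40 in both (adjusted p = 1.11e-10 in KO and 1.77e-11 in WT). At T16 and T32 the call depended on these libraries. With all libraries the log2 fold change was 0.98 ± 0.44 in KO and 1.21 ± 0.50 in WT at T16 and 0.96 ± 0.44 in KO at T32, none past the test, and 1.47 ± 0.46 in WT at T32, which passed (adjusted p = 0.0128). Without the 4 libraries these were 1.55, 1.67, 1.53 and 1.47. The value of WT at T16, 1.67, rests there on 1 library, and the other 3 passed the test (adjusted p = 5.95e-08 at most). Leaving out KO T0 replicate 1 or WT T6 replicate 2 alone was enough for all 3 of the uncalled values or, for KO T6 replicate 2, both of those at T16, and WT T16 replicate 2 for WT at T16 (adjusted p = 0.013 to 0.043).

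The adaptors of the interferon-inducing arm moved less. Ticam1 (ENSMUSG00000047123), which encodes TRIF, was 78.2, 55.3 and 65.5 CPM at T6 in KO, against 42.6, 30.1 and 35.96 CPM at T0, and 68.1, 57.3 and 65.9 CPM in WT, against 29.4, 33.2 and 28.5 CPM at T0. No T6 library overlapped those of T0, and the log2 fold change was 0.87 ± 0.17 in KO (adjusted p = 0.000215) and 1.07 ± 0.17 in WT (adjusted p = 2.35e-05). At T16 it remained higher, by 0.51 ± 0.17 in KO and 0.53 ± 0.19 in WT (adjusted p = 0.0219 and 0.0356), but its WT libraries stood at 33.9 and 53.7 CPM. The WT value at T16 was 0.16 without replicate 2 of WT T16 (adjusted p = 0.59) and 0.82 without replicate 1 (adjusted p = 0.0040), and the call was also lost without WT T0 replicate 1 or 3. The KO call at T16 was lost without KO T0 replicate 2 or 3 or KO T16 replicate 1 (adjusted p = 0.056 to 0.11). At T32 Ticam1 was not called in either genotype (log2 0.35 ± 0.17 in KO and 0.39 ± 0.17 in WT), the KO value passing without KO T0 replicate 1 (log2 0.48, adjusted p = 0.046) and the WT value without either WT T16 library or WT T32 replicate 2 (log2 0.40 to 0.49, adjusted p = 0.035 to 0.046).

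Ticam2 (ENSMUSG00000056130), which encodes TRAM, the bridge between TLR4 and TRIF in endosomes, varied least of the 10. Its level stayed between 19.1 CPM, in KO at T6, and 31.5 CPM, in KO at T0, over all 23 libraries. At T6 it was 24.01, 19.1 and 23.5 CPM in KO, against 31.5, 24.7 and 22.4 CPM at T0, and 24.4, 25.3 and 24.1 CPM in WT, against 23.3, 20.7 and 19.6 CPM at T0. The KO libraries overlapped and the WT libraries at T6 lay above those at T0, and the log2 fold changes, -0.24 ± 0.12 in KO and 0.22 ± 0.12 in WT, did not pass the test (adjusted p = 0.11 in KO and 0.141 in WT), and the signs turned, to 0.027 in KO without the 4 libraries that stood apart and to -0.58 in WT when scaled by library totals alone. The WT value passed with DESeq2 size factors in edgeR (log2 0.30, adjusted p = 0.046), with DESeq2 (log2 0.30, adjusted p = 0.030) and with limma on nRPKM (log2 0.27, adjusted p = 0.037). In WT at T32 Ticam2 passed (log2 0.34 ± 0.12, adjusted p = 0.0304), a call lost without WT T0 replicate 2 or 3 or any of the 3 WT T32 libraries (adjusted p = 0.055 to 0.10), and in KO at T32 it did not (log2 0.16 ± 0.12, and -0.18 when scaled by library totals). Single libraries decided 2 of the uncalled KO values, that at T6 passing without KO T0 replicate 3 (log2 -0.34, adjusted p = 0.035) and that at T32 without KO T0 replicate 1 (log2 0.32, adjusted p = 0.039).

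Irak4 (ENSMUSG00000059883), the kinase that starts the Myddosome cascade, fell at T6 in both genotypes. It was 26.5, 19.8 and 25.1 CPM in KO, against 45.8, 40.2 and 40.3 CPM at T0, and 26.7, 20.4 and 24.6 CPM in WT, against 40.1, 42.1 and 39.6 CPM at T0. Every T6 library was below every T0 library. The log2 fold change was -0.82 ± 0.12 in KO (adjusted p = 5.89e-06) and -0.76 ± 0.12 in WT (adjusted p = 1.52e-05), so that 0.565 of the T0 level was present in KO at T6 and 0.589 in WT. At T16 Irak4 was 43.2, 44.1 and 45.7 CPM in KO and 47.4 and 41.7 CPM in WT, overlapping T0 in both genotypes. In WT at T32 the log2 fold change was 0.19 ± 0.12 (adjusted p = 0.191), and -0.12 when scaled by library totals.

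Irak2 (ENSMUSG00000060477), the kinase family member that sustains Traf6 activation, peaked at T6. It was 303, 195 and 317 CPM in KO, against 56.1, 44.98 and 47.5 CPM at T0, and 257, 175 and 237 CPM in WT, against 45.5, 39.4 and 40.6 CPM at T0. In each genotype replicate 2 was the lowest of the T6 libraries, as it was for Tirap and Irak4, and still far above T0 for Irak2. The log2 fold change was 2.46 ± 0.19 in KO, 5.49-fold, and 2.42 ± 0.19 in WT, 5.33-fold (adjusted p = 1.09e-09 and 1.37e-09). At T16 it was 0.67 ± 0.18 in KO (adjusted p = 0.00627) and 0.48 ± 0.20 in WT (adjusted p = 0.0692), the WT value passing without replicate 2 of KO T6 or of WT T6 (adjusted p = 0.035 and 0.0498). At T32 it passed in both, by 0.48 ± 0.18 in KO and 0.58 ± 0.18 in WT (adjusted p = 0.0434 and 0.0147). The WT call at T32 was lost without WT T32 replicate 3 (log2 0.43, adjusted p = 0.088), and the KO call without KO T0 replicate 2 or 3, any KO T16 or KO T32 library, or WT T32 replicate 1 (log2 0.42 to 0.54, adjusted p = 0.051 to 0.15).

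Irak3 (ENSMUSG00000020227), the family member known as a brake, was the one that stayed high. At T6 it was 215, 155 and 225 CPM in KO and 245, 225 and 187 CPM in WT, against 34.6, 31.8 and 31.1 CPM in KO and 33.1, 29.1 and 21.8 CPM in WT at T0. At T16 it was 271, 227 and 266 CPM in KO and 238 and 194 CPM in WT, and at T32 250.2, 203 and 218 CPM in KO and 231, 253 and 251 CPM in WT. All LPS libraries of all 3 time points were above all T0 libraries, and KO and WT overlapped at each. The log2 fold change in KO was 2.61 ± 0.17 at T6, 2.97 ± 0.17 at T16 and 2.78 ± 0.17 at T32, and in WT 2.97 ± 0.17, 2.95 ± 0.18 and 3.13 ± 0.17 at the same times (adjusted p = 3.57e-10 at most). These are 6.11-fold to 7.84-fold in KO and 7.73-fold to 8.76-fold in WT.

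Traf6 (ENSMUSG00000027164), the ubiquitin ligase on which the Myddosome signal converges, rose slightly at T6. It was 49.7, 51.1 and 56.7 CPM in KO, against 38.8, 31.1 and 35.2 CPM at T0, and 43.8, 43.3 and 50.3 CPM in WT, against 29.3, 29.8 and 32.8 CPM at T0. All T6 libraries were above those of T0, and the log2 fold change was 0.58 ± 0.15 in KO and 0.58 ± 0.15 in WT (adjusted p = 0.00254 and 0.00264), signs that turned when scaled by library totals alone, to -0.25 in KO and -0.22 in WT. Under that scaling the median log2 fold change of all genes at T6 was -1 in KO and -0.944 in WT. At T32 the KO value passed (log2 0.40 ± 0.15, adjusted p = 0.0441) and the WT value did not (log2 0.26 ± 0.15, adjusted p = 0.156; -0.049 when scaled by library totals). The KO call at T32 was lost without any 1 of 16 of the 23 libraries (log2 0.32 to 0.41, adjusted p = 0.051 to 0.17), these being all but KO T0 replicate 1, WT T0 replicate 3, replicate 2 of KO T6 and replicates 2 and 3 of WT T6, and both WT T16 libraries. The WT value at T32 and the KO value at T16 passed without either WT T16 library (adjusted p = 0.032 for WT at T32 and 0.016 for KO at T16, the KO value being -0.14 when scaled by library totals).

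**Figure D2:**
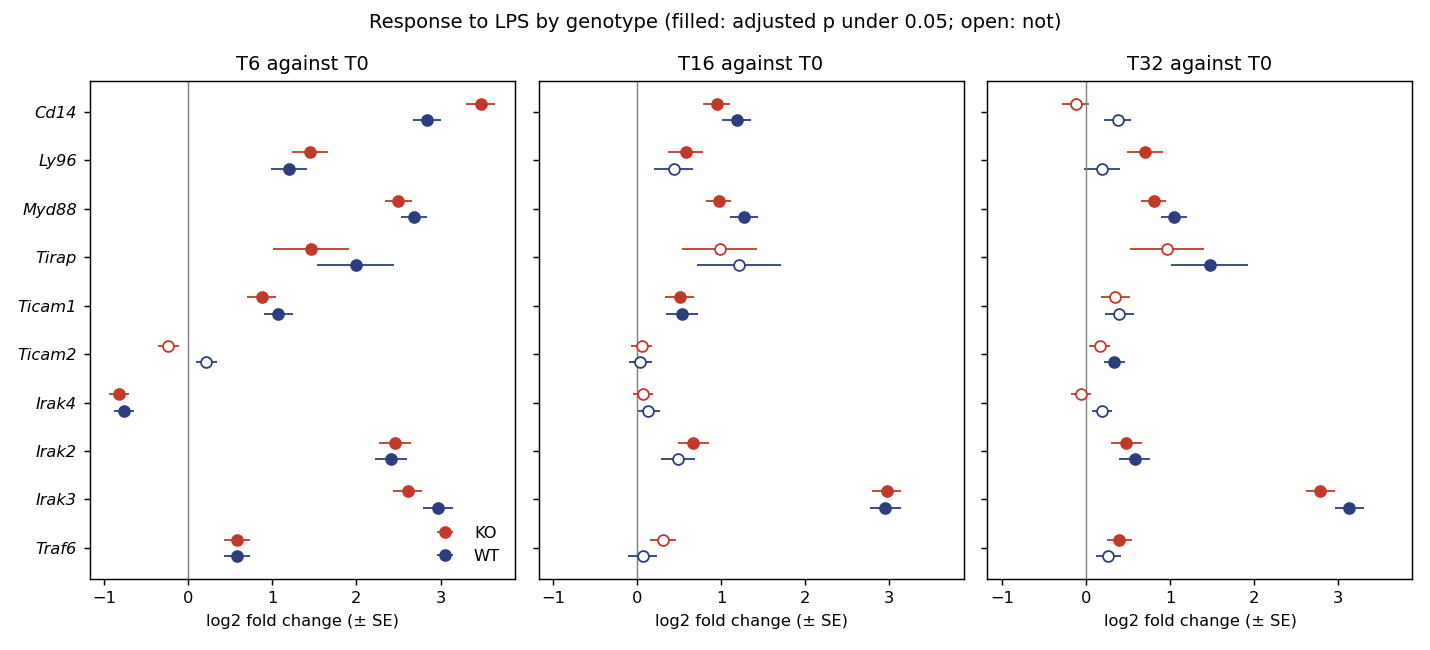
Log2 fold change (± SE) of each member at T6, T16 and T32 against T0 of the same genotype, with KO drawn above WT; filled points passed adjusted p under 0.05. Irak3 keeps a log2 fold change near 3 at all 3 time points, while Cd14, Myd88 and Irak2 are largest at T6 and Irak4 is below 0 at T6.

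At T16 and T32 fewer members passed the test than at T6, with all libraries in the fit. At T16, 6 of 10 were higher in KO (Cd14, Ly96, Myd88, Ticam1, Irak2 and Irak3) and 4 in WT (Cd14, Myd88, Ticam1 and Irak3), beside 20.4% of all genes in KO and 18.8% in WT. At T32, 5 were higher in KO (Ly96, Myd88, Irak2, Irak3 and Traf6) and 5 in WT (Myd88, Tirap, Ticam2, Irak2 and Irak3), beside 18.2% of all genes in KO and 24.5% in WT. All of these calls were rises. In KO at T32 the count was 3 without KO T0 replicate 2 or 3, any KO T16 or KO T32 library or WT T32 replicate 1, and in WT it was 3 without WT T32 replicate 3. Without the 4 libraries that stood apart the counts at T32 were 8 in KO and 9 in WT. All genes called either way at T32 then numbered 9313 in KO and 9771 in WT, against 6021 and 7320 with all libraries. That a member was called in one genotype and not in the other does not show that the genotypes differ, which was tested separately, as the change of the genotype difference over time. In bulk RNA, fewer cells that carry a transcript and less of it per cell cannot be told apart.

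With these changes the make-up of IRAK family RNA turned over. Irak1, the kinase that pairs with Irak4 and is not among the 10 members, is included here so that the shares cover all 4 family genes. Per gene length, Irak3 made up 17.9 ± 0.631% of the summed IRAK nRPKM in KO and 18.02 ± 2.78% in WT at T0 (mean ± SD). Its share was 37.5 ± 1.33% in KO and 43.8 ± 5.99% in WT at T6, 57.4 ± 2.26% in KO and 57.98 ± 0.598% in WT at T16, and 56.2 ± 2.08% in KO and 59.6 ± 2.76% in WT at T32. The mean share of Irak3 was higher at T16 and T32 than at T6 in both genotypes. Irak2 made up 51.2 ± 1.45% in KO and 44.5 ± 4.95% in WT at T6, and 17.6 ± 1.64% in KO and 15.3 ± 2.96% in WT at T32. Irak4 was 3.06 ± 0.308% in KO and 3.21 ± 0.1795% in WT at T6, against 15.6 ± 0.473% in KO and 17.8 ± 1.57% in WT at T0. The ratio of Irak3 to Irak4 nRPKM was 12.3 ± 0.903 in KO and 13.7 ± 2.56 in WT at T6, 8.15 ± 0.557 in KO and 7.83 ± 0.364 in WT at T32, and 1.14 ± 0.0255 in KO and 1.02 ± 0.202 in WT at T0. KO and WT overlapped in this ratio at T0, T6 and T32, and not at T16, where it was 8.498 ± 0.826 in KO and 7.15 ± 0.379 in WT. Separation was frequent at T16, where 20.4% of all genes were higher in KO without overlap and 21.5% lower.

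**Figure D3:**
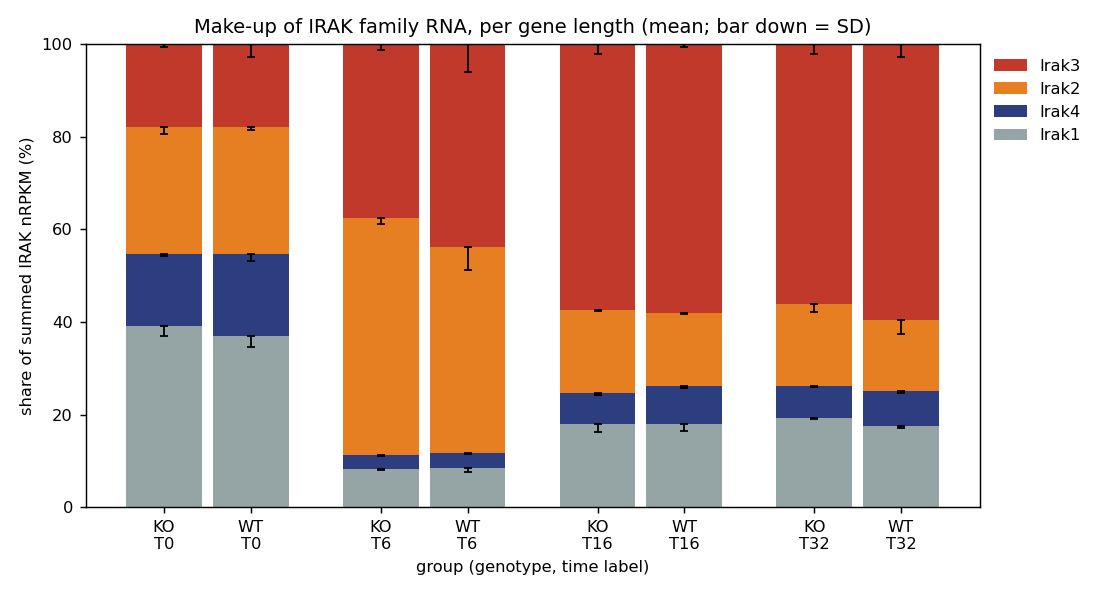
Share of each IRAK gene in the summed nRPKM of Irak1, Irak4, Irak2 and Irak3 (%, group mean; the line below each boundary is 1 SD over 3 libraries, 2 for WT T16), with KO left of WT at each time. Irak2 and Irak3 hold most of the total at T6, and Irak3 alone holds most of it at T16 and T32.

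The second comparison was that of KO with WT at the same time point, which asks whether Stk40 status goes with a different level of this machinery. No member was called at T0, T6 or T16, beside 1.95%, 0.298% and 7.64% of all genes. At an unadjusted p under 0.05 there were 3 members at T0, 1 at T6 and 2 at T16. All genes were not counted at that threshold, so the shares above are no background for these counts. DESeq2 called 0 at T0, 1 at T6 (Cd14) and 0 at T16. Those shares are edgeR's and are no background for the DESeq2 counts either. At T32, 1 of 10 was called, Cd14, which was lower in KO, beside 3.34% of all genes called lower and 6.39% called either way. At T32 4 were called without the 4 libraries that stood apart, Ly96, Tirap and Traf6 higher in KO and Cd14 lower, and 4 with only the groups compared in the fit. The calls among all genes at T32 rose as well, from 1009 with all libraries to 2787 and 2688 in these fits. The median log2 difference of the members, KO over WT, was 0.23 at T0, 0.19 at T6, 0.24 at T16 and 0.14 at T32, while the median of all genes was between -0.0118 and 0.00234.

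Cd14, the member called at T32, was lower in KO there, while at T6 its KO libraries were the higher ones without passing the test. At T6 the 3 KO libraries (3444, 2979 and 3354 CPM) were all above the 3 WT libraries (2536, 2245 and 1977 CPM), a log2 difference of 0.53 ± 0.16 that did not pass (adjusted p = 0.185; 0.024 with DESeq2). At T16 the KO libraries (572, 580.2 and 538 CPM) were below both WT libraries (747 and 685 CPM), by a log2 difference of -0.35 ± 0.18 (adjusted p = 0.227). At T32 the KO libraries (288, 268 and 249.6 CPM) were again all below the WT libraries (450.3, 398 and 381 CPM), and the difference of -0.61 ± 0.16 passed (adjusted p = 0.0257). KO cells thus held 0.656 of the WT level at T32, and at T0 the libraries overlapped. The call at T32 was lost without KO T32 replicate 2 or 3 or WT T32 replicate 1 or 2 (log2 -0.63 to -0.54, adjusted p = 0.073 to 0.11). Of all genes, 5.96% were higher without overlap at T6, 21.5% lower without overlap at T16 and 18.6% at T32.

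The change of the genotype difference over time was tested for all genes. Jointly from T0 to T6, T16 and T32 no member passed (0 of 10, beside 0.456% of all genes), and Cd14 came nearest (adjusted p = 0.079). At an unadjusted p under 0.05, a threshold at which all genes were not counted, there was 1 member. Cd14 did pass with DESeq2, with limma on nRPKM, without the 4 libraries that stood apart, without WT T0 replicate 3 and without WT T16 replicate 1 (adjusted p = 0.000494 with DESeq2, 0.042 with limma, and 0.025, 0.041 and 0.032 without those libraries). From T6 to T32, a contrast chosen after the Cd14 values were seen, the log2 difference of Cd14 changed by -1.14 ± 0.22 (adjusted p = 0.0296, beside 0.266% of all genes called). It was negative in all 32 alternatives and past the threshold in 21. The single libraries without which it was lost were replicates 1 and 3 of KO T6, 2 and 3 of WT T6, all 3 of KO T32, and 1 and 2 of WT T32 (adjusted p = 0.057 to 0.097).

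On average over the time points, 4 of 10 members were higher in KO and none lower, beside 12.1% called higher and 10.3% lower of all genes. With Y-linked transcripts as a covariate, and likewise with no filter on low counts, 2 were called, beside 2707 and 2684 of all genes. All genes called on average in the main fit numbered 3527. Among the members Tirap differed most, by a log2 of 0.79 ± 0.23 (adjusted p = 0.0183). Its KO libraries at T32 had 25.4, 23.02 and 20.01 CPM, against 16.6, 12.9 and 15.8 CPM in WT, and at T16 24.4, 22.1 and 22.7 CPM, against 17.3 and 7.77 CPM in WT. The genotypes did not overlap at T0, T16 or T32, and they overlapped at T6, where replicate 2 of each was low. Without the 4 libraries that stood apart the average was 0.52 (adjusted p = 5.24e-05), over 1.5 times smaller, and without WT T16 replicate 2 alone it was 0.67 (adjusted p = 0.070). At single time points the Tirap difference was 1.10 ± 0.45 at T0, 0.57 ± 0.44 at T6, 0.87 ± 0.50 at T16 and 0.60 ± 0.44 at T32, none past the test. Without the 4 libraries it was 0.54 at T0 and 0.60 at T32, both past it. None of the 4 is from T32, where the value did not move. Calls among all genes rose at T0 and T32 in that fit.

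Traf6 was higher in KO on average by a log2 of 0.29 ± 0.08 (adjusted p = 0.0117). At T32 its KO libraries (46.03, 47.1 and 45.2 CPM) were all above those of WT (37.8, 35.8 and 36.9 CPM), and at T16 KO (42.8, 43.5 and 43.8 CPM) was above WT (41.3 and 22.7 CPM). Replicate 2 of WT T16 was the lowest of all 23 libraries for Traf6, and without replicate 1 of that group, which leaves this library alone, the T16 difference was 0.93 (adjusted p = 0.00059), against 0.44 ± 0.17 with both (adjusted p = 0.117). Without the 4 libraries that stood apart the average was 0.17 (adjusted p = 0.016), over 1.5 times smaller. At T32 the log2 difference was 0.33 ± 0.15 (adjusted p = 0.237). Without the 4 libraries, none of them from T32, it was again 0.33 and passed. Calls among all genes at T32 rose as well in that fit.

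Ly96 and Irak2 were the other members higher in KO on average, by 0.31 ± 0.11 (adjusted p = 0.0431) and 0.28 ± 0.09 (adjusted p = 0.0409). For Ly96 the gap was widest at T32, with 31.9, 38.8 and 38.8 CPM in KO against 21.96, 28.2 and 21.9 CPM in WT (log2 0.60 ± 0.21, adjusted p = 0.1). Without the 4 libraries that stood apart, none of them from T32, that difference was again 0.60 and passed. The T32 libraries were the same in both fits, and calls among all genes at T32 rose as well. For Irak2 the genotypes did not overlap at T16, with 80.2, 74.5 and 81.3 CPM in KO against 63.8 and 53.1 CPM in WT (log2 0.43 ± 0.21, adjusted p = 0.201). Both averages were near the threshold, and the count of members called on average was 2 without KO T0 replicate 3, WT T0 replicate 2, KO T6 replicate 3, KO T16 replicate 1 or 3, KO T32 replicate 2 or WT T32 replicate 1. That of Ly96 was lost without any 1 of 13 libraries (log2 0.24 to 0.32, adjusted p = 0.051 to 0.10): replicates 2 and 3 of KO T0, 2 of WT T0, 2 and 3 of KO T6, 3 of WT T6, 1 and 3 of KO T16, 1 of WT T16, 2 and 3 of KO T32, and 1 and 3 of WT T32. That of Irak2 was lost without any 1 of 14 (log2 0.24 to 0.28, adjusted p = 0.051 to 0.12): replicates 1 and 3 of KO T0, 2 and 3 of WT T0, 1 and 3 of KO T6, 2 of WT T6, 1 and 3 of KO T16, 2 of WT T16, 1 and 2 of KO T32, and 1 and 2 of WT T32.

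Of the members not called on average, Myd88 came nearest (log2 0.19 ± 0.08, adjusted p = 0.0763) and Ticam2 next (log2 0.15 ± 0.06, adjusted p = 0.0932; -0.025 when scaled by library totals). At T0 Myd88 was 165, 169.6 and 159 CPM in KO, all above the 131, 143 and 107 CPM of WT (log2 0.38 ± 0.15, adjusted p = 0.338). Ticam1 was higher by 0.19 ± 0.09 (adjusted p = 0.129), a value that passed without WT T16 replicate 2 (log2 0.28, adjusted p = 0.027), as did those of Myd88 without the same library (log2 0.26, adjusted p = 0.019) and Ticam2 without KO T6 replicate 2 (log2 0.18, adjusted p = 0.034). Ticam2 in KO was below WT without overlap at T6 (log2 -0.15 ± 0.12) and above it without overlap at T16 (log2 0.32 ± 0.14), and neither passed. At T32 Irak4 was 42.4, 39.4 and 39.7 CPM in KO, all below the 46.1, 47.1 and 45.7 CPM of WT (log2 -0.19 ± 0.12, adjusted p = 0.414). Irak3 overlapped between the genotypes at all 4 time points.

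Counted over the members, the KO libraries were all above the WT libraries for 2 members at T0, 1 at T6, 4 at T16 and 4 at T32, and all below for 0, 1, 1 and 2 at these times. Of all genes, the KO libraries were all above at T0 for 8.79%, at T6 for 5.96%, at T16 for 20.4% and at T32 for 17.5%, and all below for 6.30%, 5.08%, 21.5% and 18.6%. Other measures moved with genotype in the same libraries. Summed neutrophil and precursor markers (10 genes, none at 0 in any group) were 639.8 to 745 CPM in KO and 341 to 637 CPM in WT at T0, 615 to 751 CPM in KO and 328 to 554 CPM in WT at T6, 371 to 467 CPM in KO and 154 to 342 CPM in WT at T16, and 195 to 285 CPM in KO and 70.4 to 89.2 CPM in WT at T32, and 1, 0, 1 and 2 of the 10 were called higher in KO at these times. Of 16 type I interferon response genes, a list already known to differ in these data, 16 were higher in KO at T0 (median log2 1.69), 0 at T6, 2 at T16 and 3 at T32. On average over the times, 5 of the 10 neutrophil and precursor markers, 16 of the 16 interferon response genes (median log2 0.76) and 3 of 10 macrophage markers were higher in KO, and 2 of 6 stromal markers were lower. Of the scarce markers that could be tested, 2 of 3 for T, B and NK cells, 1 of 4 for dendritic cells and 1 of 2 for basophils and mast cells were higher. Of all genes, 12.1% were called higher on average and 10.3% lower. The part of these lists in the differences of the members was not tested.

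**Figure D4:**
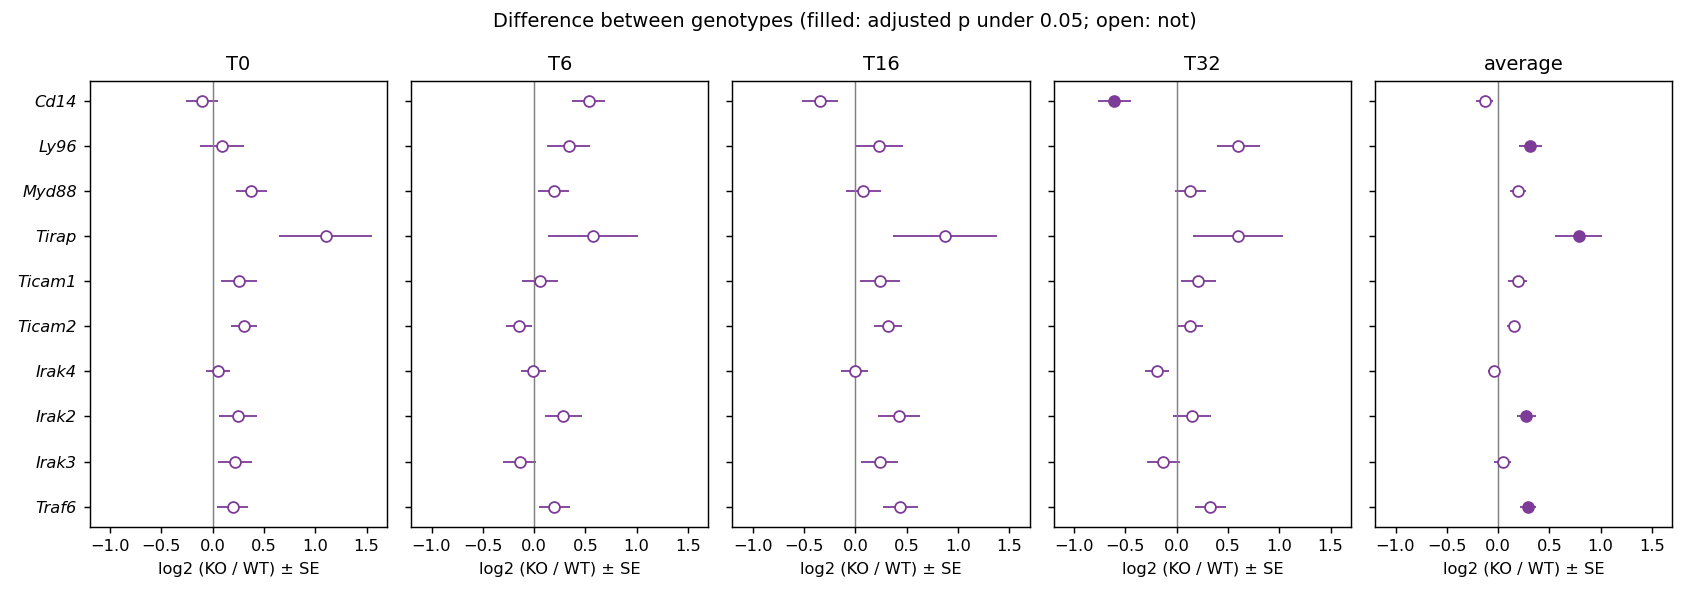
Log2 difference (± SE), KO over WT, of each member at T0, T6, T16 and T32 and on average over them; filled points passed adjusted p under 0.05. Cd14 is right of 0 at T6 and left of it at T16 and T32, and the averages of Tirap, Ly96, Irak2 and Traf6 are filled.

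The rest of the TLR4 pathway was followed through 35 other genes, 34 of them tested. At T6, 15 rose and 6 fell in KO, and 16 rose and 5 fell in WT, beside 26.2% higher and 32.4% lower of all genes in KO and 27.3% higher and 31.9% lower in WT. With DESeq2 size factors in place of TMM, 19 rose and 6 fell in KO and 20 rose and 3 fell in WT. All genes called either way then numbered 9172 in KO and 9201 in WT, against 9253 and 9332 with TMM. The median log2 fold change of the list at T6 was 0.40 in KO and 0.54 in WT. At T16, 12 rose and 3 fell in KO, and 9 rose and 3 fell in WT, beside 20.4% of all genes called higher in KO and 18.8% in WT. At T32, 13 rose and 3 fell in KO, and 15 rose and 4 fell in WT, beside 18.2% of all genes called higher in KO and 24.5% in WT. All genes called either way numbered 6903 in KO and 5680 in WT at T16, and 6021 in KO and 7320 in WT at T32. The receptor itself, Tlr4, was not called at T6 in either genotype and had 75.1, 43.9 and 79.3 CPM in KO and 54.5, 44.1 and 65.5 CPM in WT, against 95.8, 52.3 and 69.4 CPM in KO and 48.02, 43.7 and 50.6 CPM in WT at T0. Irak1 fell at T6, with a log2 fold change of -0.70 ± 0.17 in KO and -0.41 ± 0.17 in WT (adjusted p = 0.00159 and 0.0436), the same direction as Irak4. Lbp, the serum protein that delivers LPS to Cd14, rose at T32, by 1.61 ± 0.32 in KO and 1.91 ± 0.33 in WT (adjusted p = 0.000601 and 0.000112). Scimp, a transmembrane scaffold of Toll-like receptors, had the largest rise of the list at T6 in both genotypes (log2 4.96 ± 0.60 in KO and 4.83 ± 0.60 in WT), followed by Tnfaip3, the deubiquitinase A20 that limits Traf6 signalling (log2 4.85 ± 0.22 in KO and 4.70 ± 0.21 in WT). Sarm1, an inhibitory adaptor, also passed in KO but was counted at a few reads only, 0 to 0.0444 CPM in KO at T6 against 0.208 to 0.326 CPM in KO at T0, so its fold is not given. Peli1 rose in WT (log2 3.56 ± 0.26, adjusted p = 4.48e-10). Its level was also higher at T6 in KO, at 296 to 492 CPM against 21.7 to 40.5 CPM in KO at T0.

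Between genotypes, 0 of the 34 other pathway genes were called at T0, 0 at T6, 3 at T16 and 2 at T32, all higher in KO, beside 1.95%, 0.298%, 7.64% and 6.39% of all genes called either way, so the shares of the list lie near those of all genes and are not a result about the list. At an unadjusted p under 0.05, a threshold at which all genes were not counted, there were 5 at T0 and 4 at T6. DESeq2 called 1 at each of these times, for which the edgeR shares above are no background. The median log2 difference of the list was 0.17 at T0, 0.12 at T6, 0.26 at T16 and 0.10 at T32. Those at T16 were Peli1, a ubiquitin ligase of the IRAK complex (log2 0.97 ± 0.27, adjusted p = 0.0355), Tnfaip3 (log2 0.96 ± 0.21, adjusted p = 0.00991) and Tbk1, the kinase below TRIF that activates Irf3 (log2 0.61 ± 0.11, adjusted p = 0.00401). Those at T32 were Tnfaip3 (log2 0.80 ± 0.18, adjusted p = 0.0118) and Tbk1 (log2 0.43 ± 0.10, adjusted p = 0.0131). The T16 count rose without WT T16 replicate 1 and fell without replicate 2, and calls among all genes at T16 moved the same ways. Either fit leaves 1 library in WT T16. At T32 calls among all genes fell from 1009 to 431 without KO T32 replicate 2 and to 490 without replicate 3. The T32 count of the list was then 1, and it was 0 without WT T32 replicate 2. On average 7 were higher and none lower, beside 12.1% of all genes called higher, among them Cd180, a TLR4 homologue (log2 0.73 ± 0.22), Tlr4 (log2 0.52 ± 0.12, adjusted p = 0.00505) and Tollip, an inhibitor of Irak1 (log2 0.26 ± 0.07, adjusted p = 0.0101). Called either way on average were 11 without KO T0 replicate 2 and 16 without KO T6 replicate 2 (13 higher and 3 lower). Of all genes, 3966 and 4858 were called in these fits, against 3527 with all libraries. Without WT T16 replicate 1, which leaves 1 library in that group, both counts rose as well.

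Members resembled each other to different degrees across the 23 libraries, which share time points, so the correlations of log2 CPM given here describe the time course and not a relation within a condition. Irak2 and Myd88 were the most alike (Pearson r = 0.937), followed by Irak2 and Cd14 (r = 0.923) and Myd88 and Cd14 (r = 0.913). Irak3 followed Cd14 less closely (r = 0.442). Irak4 ran opposite to Cd14 (r = -0.851), Irak2 (r = -0.839) and Myd88 (r = -0.814). For the 4 members that varied most between groups, the most similar of 9283 genes with a mean of at least 5 CPM were Slc2a6, Pik3r5 and Slc9a8 for Cd14 (r = 0.979 to 0.975), Cd38, Ccl5 and Fpr1 for Irak3 (r = 0.990 to 0.987), Rhbdf2, Il27 and AC123720.1 for Myd88 (r = 0.993 to 0.990), and Clic4, Nfkb1 and Map2k4 for Irak2 (r = 0.993 to 0.987).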

How the data were processed

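Per the labels' protocols, DNase-treated RNA was made into unstranded polyA libraries (TruSeq RNA v2) and sequenced as single-end Illumina reads. The submitters' processing notes name GSNAP and GRCm38, while versions, annotation and the counting tool were not given in the sources used here. Deposited values are the authors' raw counts per gene and their RPKM, headed nRPKM and read here as adjusted by size factors. Counts and nRPKM were each identical in the series tables and the per-library tables in 23 of 23 libraries.

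Counts were tested with edgeR 4.0.16 in R 4.3.3 (filterByExpr, 15782 genes; TMM factors 0.677 to 1.45; robust quasi-likelihood fit with a mean per genotype and time, all 23 libraries; common biological coefficient of variation 0.217). Calls take an adjusted p (Benjamini-Hochberg, all genes tested) under 0.05, and these p-values are edgeR's unless DESeq2 (1.42.0) or limma (3.58.1, on log2(nRPKM + 1)) is named. SE is the log2 fold change over the square root of the F statistic. CPM use TMM, and log2 CPM a prior count of 1. On counts simulated for KO against WT, the fit called 64% of 2-fold and 96% of 4-fold changes at T0 (15608 genes, 6 false calls) and 62% and 90% at T16 (15543 genes, 6 false calls).

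The labels do not number the replicates or say whether they were separate mice or cultures, so replicate numbers only name libraries, and p-values measure the spread between these libraries, which may be in part technical. In each WT group 1 library held Y-linked transcripts, so the replicates of a WT group did not all come from the same animal. No replicates were merged (chi-square per degree of freedom at least 13.9). The members and the gene lists were chosen with earlier results of these data known. Of other pathway genes, Tlr4, Irak1, Lbp and Tollip and up to 3 called genes per comparison with the largest change could be named; for likeness, the 3 best genes for each of the 4 members with the largest SD of group means. Alternatives were other scaling, no filter on low counts, DESeq2, limma, only the groups compared, Y-linked transcripts as a covariate, leaving out the WT libraries with them, the 4 libraries that stood apart, or each library in turn.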

Additional observations from a re-analysis of the deposited data

Results flagged for a closer look

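The change of the genotype difference of Cd14 between time points was marked because a test of that change from T6 to T32 passed. The KO minus WT log2 difference at T32 less that at T6 was -1.14 (SE 0.22, adjusted p = 0.030 by edgeR), with all 3 KO libraries above all 3 WT libraries at T6 and all 3 below all 3 at T32. Over the 32 alternatives the adjusted p was 0.000166 to 0.0968. Of these alternatives, 21 passed the threshold and 11 did not. The contrast was chosen after the Cd14 values were seen, so its p-value alone cannot establish the change. The joint test from T0 to any LPS time point did not pass (adjusted p = 0.079 by edgeR). Nor did the difference at T6 (adjusted p = 0.185 by edgeR).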

How the results depend on the processing

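No paired analysis was run, because the labels give the replicates no number and name no pairs. The sample identifiers were not taken as pairs, so any pairing of libraries across groups is left out of every fit. Of the values and counts below, the cause of each change was not tested except where fewer libraries entered the fit. Without the 4 libraries that stood apart, members called between genotypes numbered 1 at T0 (Tirap) and 4 at T32 (Ly96, Tirap and Traf6 higher, Cd14 lower). At these times 389 and 2787 of all genes were called, against 307 and 1009 with all libraries. Members called at T32 against T0 numbered 8 in KO and 9 in WT. Beside them 9313 and 9771 of all genes were called, against 6021 and 7320 with all libraries. Other pathway genes called numbered 6 between genotypes at T32, 25 for KO at T16 and 25 for KO at T32. WT T16 then held 1 library, and the Ticam1 difference between genotypes at T16 was 0.61. With only the groups compared, 4 members and 6 other pathway genes were called at T32 and 0 other pathway genes at T16. All genes called then numbered 2688 at T32 and 9 at T16, against 1009 and 1206 with all groups in the fit. DESeq2 called 1 member at T6 and 1 in the joint test. It called 1, 1, 5 and 13 other pathway genes at T0, T6, T16 and on average. Limma called 1 member in the joint test. The shares of all genes given above are edgeR's and are no background for the DESeq2 and limma counts. Without a filter, 2 members were called on average, 3 in KO and 3 in WT at T32 against T0, and 1 other pathway gene at T32. All genes called then numbered 2684 on average, 5180 in KO and 6330 in WT at T32 against T0, and 747 between genotypes at T32. With all settings as in the main fit these were 3527, 6021, 7320 and 1009. With Y-linked transcripts as a covariate 2 members were called on average, beside 2707 of all genes. Leaving out the WT libraries that hold Y-linked transcripts leaves 1 library in WT T16. Fewer members were then called in WT at T32 against T0, and fewer other pathway genes at T16. Calls among all genes fell as well in both comparisons without those libraries. Cd14's change from T6 to T32 missed the threshold without those libraries (-1.28, adjusted p = 0.075) and with only the groups compared (-1.14, adjusted p = 0.065).

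Library totals, under which the median of all genes was -0.201 to -0.149 between genotypes and -1 to -0.311 for LPS, left 3 members called in WT at T32 against T0 and 1 other pathway gene between genotypes at T32. They turned the sign of Ticam2 (-0.058 at T32 and -0.025 on average between genotypes; -0.58 for WT at T6 and -0.18 for KO at T32), Traf6 (-0.25 for KO at T6, -0.22 for WT at T6, -0.14 for KO at T16 and -0.049 for WT at T32), Irak4 (-0.29 for WT at T16 and -0.12 at T32) and Ly96 (-0.034 for WT at T16). Ly96 for WT at T16 was also -0.10 once the 4 WT libraries holding Y-linked transcripts were dropped, Ticam2 for KO at T6 was 0.027 without the 4 libraries that stood apart, and Ticam1 between genotypes at T16 was -0.057 to 0.60 with 1 library left out, lowest without WT T16 replicate 1 and highest without replicate 2.

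With 1 library left out, between genotypes 0 members were called at T0 and T6, 0 to 1 at T16, T32 and in the joint test, and 2 to 4 on average; for LPS, 9 to 10 in KO and 9 in WT at T6, 4 to 7 in KO and 3 to 6 in WT at T16, and 3 to 7 in each at T32. Other pathway genes called were 0 to 1 at T0, 0 at T6, 0 to 11 at T16, 0 to 3 at T32, 7 to 17 on average and 0 to 2 in the joint test; for LPS, 18 to 23 in each genotype at T6, 13 to 18 in KO and 10 to 14 in WT at T16, and 13 to 19 in KO and 15 to 20 in WT at T32. Calls among all genes moved as well with 1 library left out. On average between genotypes they numbered 3966 without KO T0 replicate 2, against 3527 with all libraries. Cd14's change from T6 to T32 was -1.24 to -1.06. WT at T16 has 2 libraries, so leaving out 1 assumes the other varies like the rest. At the recovery simulated here, 2-fold differences between genotypes could be missed.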
